A study of Poecilia mexicana x Poecilia latipinna and Poecilia formosa with 28 samples.

Results

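Brains of the Amazon molly, Poecilia formosa, were compared with brains of F1 hybrids between Poecilia mexicana and Poecilia latipinna, using the 10 brain libraries among the 28 libraries of the study. The comparison holds every brain column of the count table: 4 P. formosa (fish 3, 4, 11 and 12) and 6 hybrids (fish 4, 10, 11, 12, 13 and 14). All fish were untreated females, 3 months old, matched for size and raised alike. The P. formosa fish were siblings from 1 laboratory clone founded with fish from Ciudad Mante in Mexico. The hybrids were siblings from 1 brood of a P. mexicana mother and a P. latipinna father, whose stocks came from Laguna Champaxan. Fish of a group therefore represent 1 clone and 1 brood, and all p-values cover only the spread among such siblings. The livers of the same 10 fish and ovaries of 8 of them (hybrids 11 and 14 have none analysed here) show how the brain genes behaved elsewhere.

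The Amazon molly is an all-female species that arose from a cross between the same kinds of parents as the laboratory hybrids. Its eggs develop without meiotic reduction and need sperm of a related species to start development, but usually no paternal genes are kept, so daughters are clones of their mother. Clone and F1 hybrid both carry a genome set from each parental species. The clone has been propagated without recombination over many generations, whereas the F1 hybrids are the first generation of a new cross, so the comparison asks how expression in an established clonal hybrid differs from that in a newly made one.

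Brain libraries held 32460110 to 37706902 counts assigned to genes. The table names genes by numeric IDs only, without symbols, so neural marker genes could not be looked up. As a check of the organ label, each brain library had a median Spearman correlation of 0.889 to 0.985 with the other brains, against 0.325 to 0.430 with livers and 0.338 to 0.408 with ovaries. The lowest value among brains was that of P. formosa brain 11, followed by 0.958 for P. formosa brain 4. These libraries stood apart from the other 8, at 0.977 to 0.985, so results are given with and without them. In bulk tissue, fewer cells of a type and less RNA per cell cannot be told apart.

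With all 10 brains, 1761 of 22611 genes tested were higher in P. formosa (7.79% of genes tested) and 966 were lower (4.27%), by edgeR's quasi-likelihood test at an adjusted p under 0.05. Without P. formosa brains 4 and 11, 527 of 23079 genes were higher (2.28%) and 378 lower (1.64%). Both tests called 485 genes as higher, which is 27.5% of the 1761 and 92.0% of the 527. Both tests called 301 genes as lower, which is 31.2% of the 966 and 79.6% of the 378. These 485 and 301 genes are 2.14% and 1.33% of the genes tested with all brains. Most of the smaller lists thus lay within the larger ones.

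The genes called in both tests had large median differences in every P. formosa brain. Among the 485 higher genes, the median log2 difference from the hybrid mean was 1.46 in fish 3, 1.65 in fish 4, 1.73 in fish 11 and 1.38 in fish 12. Among the 301 lower genes it was -1.03, -1.03, -1.23 and -1.04 in the same order of fish. These medians of the 4 P. formosa brains lay close together, which does not show that the fish were alike gene by gene. The fitted difference exceeded 2-fold for 346 higher and 174 lower genes, and 8-fold for 121 and 41. The ranges of the genotypes did not overlap for 445 of the 485 and 295 of the 301, beside 6.4% of all tested genes without overlap and higher in P. formosa and 5.4% without overlap and lower. These values come from the libraries that called the genes and describe them only.

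Genes called with all brains and not without fish 4 and 11 are chosen for larger differences in these fish, and the following medians describe that choice. For the 1276 such genes that were higher with all brains, the median log2 difference was 0.53 in fish 3, 1.47 in fish 4, 2.24 in fish 11 and 0.59 in fish 12. For the 665 lower genes the medians were -0.44, -0.59, -0.82 and -0.44. The medians had the same sign in each brain. Of all 1761 higher genes, 1732 kept a positive log2 fold change without fish 4 and 11, and all 966 lower genes kept a negative one, beside 17357 of all 22611 tested genes that kept their sign. Both fits share the hybrids and P. formosa brains 3 and 12, so this is a description. The common biological coefficient of variation, the typical relative spread between fish of a group, was 29.8% with all brains and 21.8% without fish 4 and 11.

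**Figure D1:**
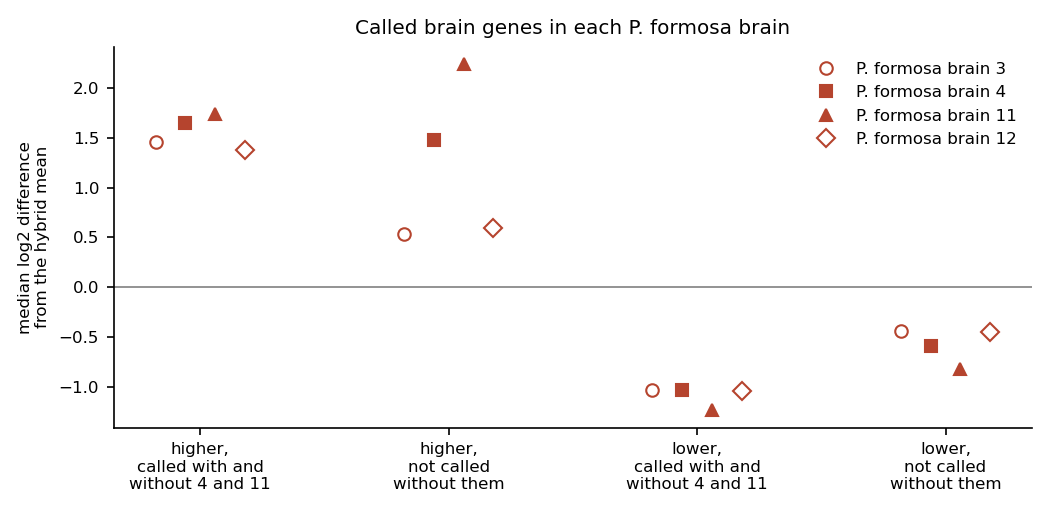
Median log2 difference of each P. formosa brain from the mean of the 6 hybrid brains (vertical axis), for the genes called higher or lower with all 10 brains, divided by whether the call remained without brains 4 and 11. Filled symbols are brains 4 and 11. The medians of the fish lie close together for the 485 and 301 genes called in both tests. For the 1276 higher genes called with all brains only, brain 11 reaches 2.24 and brain 3 only 0.53.

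The number of calls moved when single libraries or a series of library numbers was left out. Leaving out P. formosa brain 4 gave 826 higher genes, leaving out P. formosa brain 11 gave 1100, and leaving out any 1 hybrid gave 830 to 1056. Leaving out P. formosa brain 4 gave 420 lower genes, and leaving out P. formosa brain 11 gave 707. Leaving out hybrid 11, 12, 13 or 14 gave 502 to 624 lower genes, and leaving out hybrid 4 or 10 gave 706 and 751. The counts rose instead when P. formosa brain 3 or 12 was left out. Higher genes then numbered 2531 and 2468, and lower genes 1089 and 1027. Library numbers fall into a first series, with all P. formosa and hybrids 4 and 10, and a second series with hybrids 11 to 14. Within the first series 162 genes were higher and 120 lower. Within it and without P. formosa brains 4 and 11, an alternative added after seeing the data, 727 were higher and 591 lower, and these included 486 of the 1761 and 303 of the 966. That fit held only P. formosa brains 3 and 12 and hybrids 4 and 10. The brains that stood apart were removed by choice, so its larger counts are no stronger support. The labels do not call the series a batch, and the second series holds no P. formosa library.

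The largest fold increase among genes called in both tests, at a mean of 5 CPM (counts scaled to library size) or more in the higher genotype and with no overlap, belonged to gene 103132697. CPM were scaled within each organ, so levels of a gene in different organs are set side by side and not tested. The gene's level in P. formosa brains was 35.4 CPM in fish 3, 29.8 in fish 4, 37.9 in fish 11 and 33.3 in fish 12. In the hybrids it had 1 count in fish 4 and none in the other 5 brains. The ratio of summed counts, per total count, was 7317 with a 95% exact interval of 1313 to 289064 that covers counting error only. The genotypes did not overlap, and the edgeR adjusted p was 1.03e-08. No overlap and an adjusted p under 0.05 were conditions of the choice, so they only describe the genes named by it. The gene was also higher in P. formosa liver, at 5.08 ± 0.58 CPM (SD, n = 4) against 0.0233 ± 0.0344 (n = 6), and in ovary, at 4.34 ± 0.71 (n = 4) against 0.0401 ± 0.0208 (n = 4). It was near 0 in hybrids in each organ, with 1, 6 and 7 counts summed over their brains, livers and ovaries.

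Gene 103154613, named by the same rule, had no count in any hybrid brain, liver or ovary. In P. formosa brains it stood at 5.19, 9.89, 16.2 and 3.76 CPM in fish 3, 4, 11 and 12, which is at least 613-fold higher against a floor of 3 counts over the hybrid brains. Its adjusted p by edgeR was 0.0020 with all brains and 9.8e-04 without fish 4 and 11, but 0.0522 within the first library series. Fish 4 and 11 had the highest levels, but fish 3 and 12 were also well above 0. The gene stood at 5.42 ± 0.85 CPM in P. formosa liver and 0.600 ± 0.309 in ovary (SD, n = 4 each). A gene with counts in only 1 genotype can be a gene that is silent in the other or an allele whose reads were not assigned, and the counts cannot tell these apart.

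By the same rule, the largest decrease belonged to gene 103149106, with 0.188, 0.171, 0.0586 and 0.794 CPM in P. formosa brains 3, 4, 11 and 12. Hybrid brains had 10.1 CPM at the lowest, 14.1 at the median and 19.5 at the highest. The genotypes did not overlap, with a log2 fold change of -5.57 ± 0.57 (SE) and an edgeR adjusted p of 2.1e-04, which was 0.0522 within the first library series. In liver the gene was lower in P. formosa by less, at -1.24 ± 0.22 on the log2 scale. In ovary it was slightly higher in P. formosa, 26.1 ± 0.63 against 21.5 ± 1.29 CPM (SD, n = 4 each). Within P. formosa the level was thus high in ovary and near 0 in brain.

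Gene 103131645, also named by this rule, was low in P. formosa in every organ. P. formosa brains had 0.0538, 0.227, 0.205 and 0.344 CPM in fish 3, 4, 11 and 12, and hybrid brains 7.04 at the lowest, 8.50 at the median and 10.0 at the highest. The log2 fold change was -5.34 ± 0.35, with an edgeR adjusted p of 6.9e-06 and no overlap. In liver it had no count in any P. formosa fish against 14.0 ± 2.52 CPM in hybrids (SD, n = 6), and in ovary 0.110 ± 0.066 against 1.64 ± 0.66 (n = 4 each). The direction was the same in the 3 organs.

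**Figure D2:**
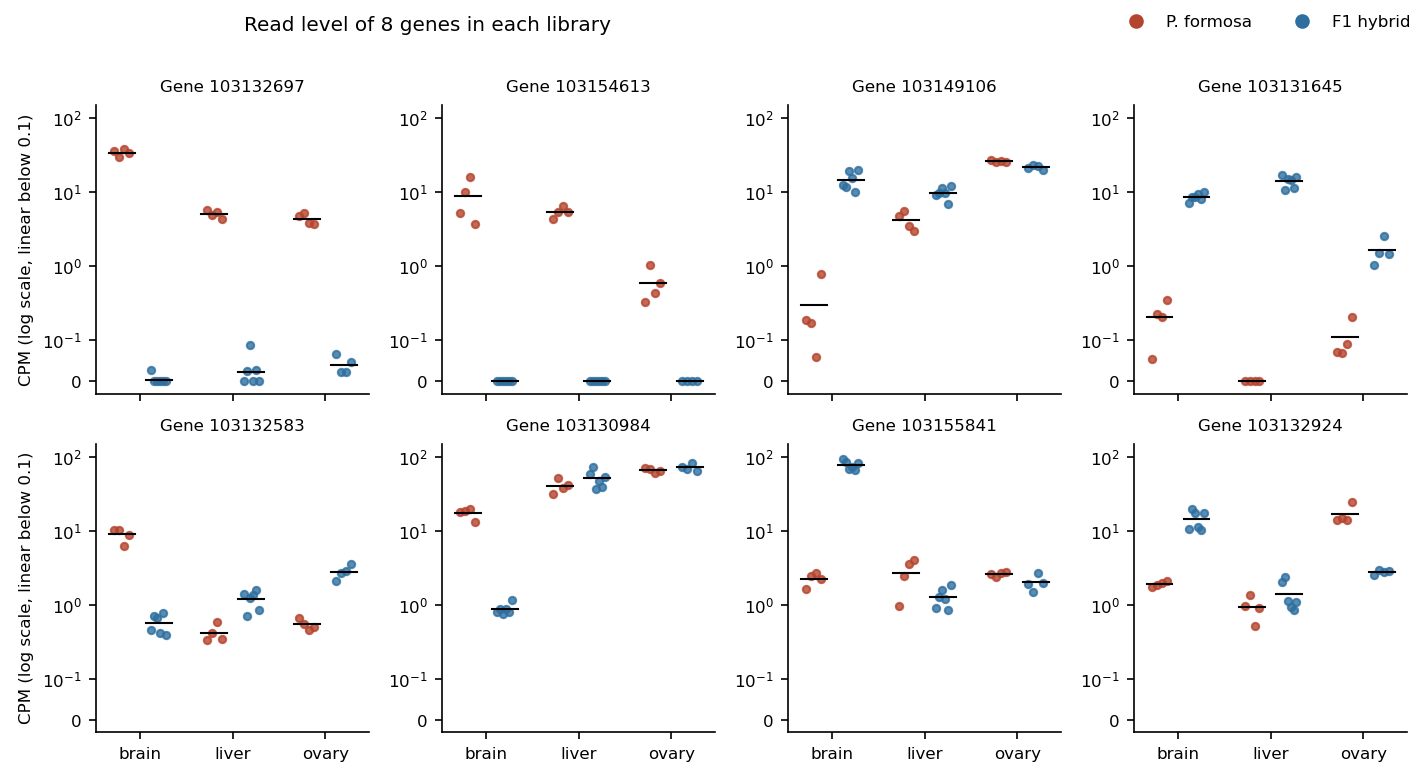
CPM of 8 genes in each library (points), with the group mean as a black line, for brain, liver and ovary; the vertical axis is logarithmic above 0.1 CPM and linear below it, so that libraries at 0 can be shown. The upper row holds the genes with the largest brain differences, of which 103132697, 103154613 and 103131645 differ the same way in each organ; the lower row holds genes whose genotype difference was larger in brain, such as 103155841, at 66.3 to 93.1 CPM in hybrid brains alone.

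Genes called higher had low levels in brain. CPM are not divided by gene length, so these medians compare counts and not transcript numbers. The median level of the 485 higher genes was 2.19 CPM in hybrid and 8.90 CPM in P. formosa brains, and they had medians of 1.5 CPM in liver and 2.91 CPM in ovary. The 301 lower genes had medians of 12.96 CPM in hybrid and 5.25 CPM in P. formosa brains, 0.775 in liver and 2.93 in ovary. Over all tested genes the medians were 12.0 and 13.7 CPM in the brains of the 2 genotypes, 2.3 in liver and 10.6 in ovary. The share of genes called higher was 8.21% below 1 CPM in brain, 12.8% between 1 and 5 CPM and 2.99% above 100 CPM. Without brains 4 and 11 these shares were 2.43%, 3.66% and 0.598%. The share called lower was 4.14% between 1 and 5 CPM and 6.32% above 100 CPM with all brains, but 1.73% and 1.11% without brains 4 and 11, so the order of these shares turned.

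The calls were then set against where else the same genes were expressed, using liver and ovary libraries only. Of 957 genes that reached 5 CPM in liver but not ovary, 16.3% were higher in P. formosa brain and 3.97% lower, beside 7.79% and 4.27% of all tested genes. Without brains 4 and 11 these shares were 4.60% and 1.67%, beside 2.28% and 1.64%. Genes at 5 CPM in ovary only (5851 genes) were higher in 6.94% and lower in 4.07%, and without brains 4 and 11 in 1.81% and 1.09%. Genes at 5 CPM in both organs (7724) were higher in 6.42% and lower in 2.85%, but without these brains in 1.41% and 1.53%, with median log2 fold changes of 0.07 with all brains and -0.03 without these. Genes below 5 CPM in both liver and ovary (8079) were higher in 8.70% and lower in 5.82%, and without brains 4 and 11 in 3.19% and 2.23%. The median log2 fold change of the liver-only genes was 0.20 with all brains and 0.02 without fish 4 and 11.

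Genes were also classed with the brain level included. Brain-enriched genes, at 5 CPM or more in brain and at least 4 times the level of either other organ, numbered 2785. Of these, 34 were higher and 223 lower with all brains (1.22% and 8.01%), but 37 were higher and 38 lower without brains 4 and 11. Among 1500 liver-enriched genes 182 were higher and 54 lower (12.1% and 3.6%), against 41 and 26 without these brains (2.73% and 1.73%). Among 1880 ovary-enriched genes 202 were higher and 37 lower (10.7% and 1.97%), against 32 and 13 (1.70% and 0.691%). Broadly expressed genes (5046, at 5 CPM or more in each organ and within 4-fold) gave 268 higher and 131 lower (5.31% and 2.60%), against 80 and 77 (1.59% and 1.53%). The shares over all tested genes were 7.79% and 4.27% with all brains and 2.28% and 1.64% without brains 4 and 11. Without fish 4 and 11, the lower calls among brain-enriched genes made up 1.36% of the class.

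The share of each library's counts that fell on these classes departed most from the hybrids in P. formosa brains 4 and 11. Brain-enriched genes held 37.3% of the counts in P. formosa brain 3, 33.4% in brain 4, 24.1% in brain 11 and 37.1% in brain 12. In hybrids they held 37.7% at the lowest, 38.2% at the median and 39.0% at the highest. Brains 3 and 12 lay just under the hybrid range, and brains 4 and 11 far under it.

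Liver-enriched genes held 6.64%, 8.66%, 10.7% and 6.65% of the counts in P. formosa brains 3, 4, 11 and 12, and 5.86% to 6.68% in hybrid brains. Brains 3 and 12 lay within the hybrid range. Ovary-enriched genes held 1.59%, 1.74%, 2.13% and 1.69% of the counts, against 1.54% to 1.64% in hybrids. Broadly expressed genes held 29.7%, 30.7%, 34.1% and 29.7%, against 29.3% to 29.6%. Here brains 3 and 12 lay just above the hybrid range, as did brain 12 for ovary-enriched genes. Shares of a library add up to 100%, so a lower share of one class raises the others.

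**Figure D3:**
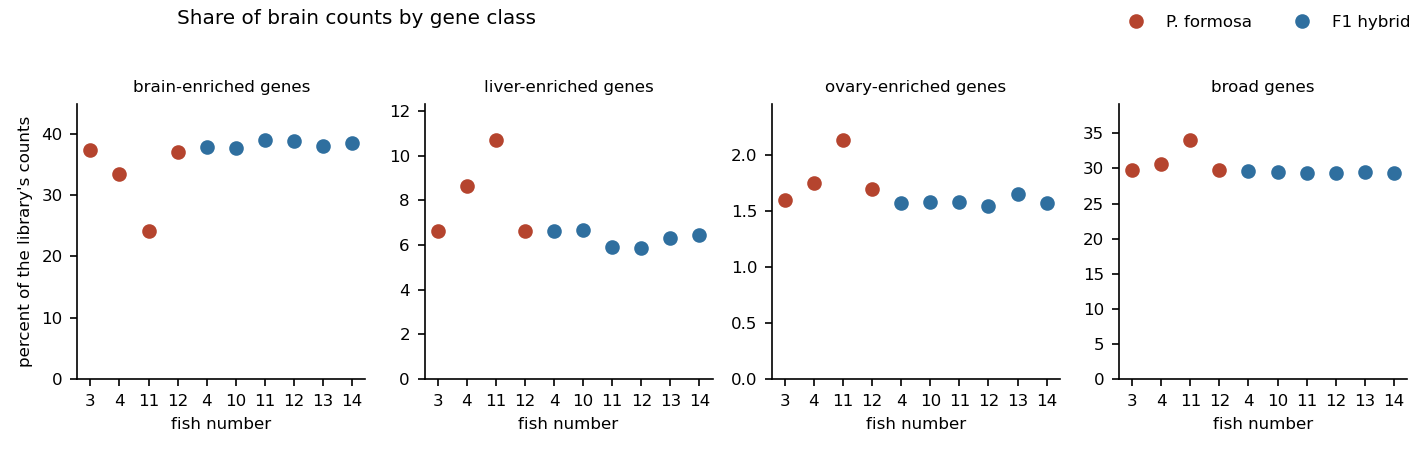
Percent of each brain library's counts on genes of 4 expression classes (1 panel each, vertical axes from 0), for 4 P. formosa and 6 hybrid fish. P. formosa brain 11, with 24.1% on brain-enriched genes, and brain 4, with 33.4%, lie under the 37.7% to 39.0% of hybrids, and both lie above the hybrids for the other 3 classes.

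Brain 11 held a set of genes with very high levels, and its departure was not confined to them. Among 15578 genes at a mean of 5 CPM or more over the 10 brains, 204 were more than 4-fold higher in P. formosa brain 11 than in each of the other 9 brains. The same count was 17 for P. formosa brain 4, 3 for brain 12, 1 for hybrid 12 and 0 for each other brain. At more than 2-fold the count was 1060 for P. formosa brain 11, 97 for brain 4, 16 for brain 12 and 3 for brain 3. The 204 genes held 5.81% of the counts of brain 11 and 1.04% of those of brain 4, against 0.254% in brain 3, 0.304% in brain 12 and 0.256% to 0.310% in hybrids. The 3 genes highest in brain 11 alone made up 1.86% of its counts. The genes were chosen for being high in brain 11, so their level there is a description.

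The mean of 5 CPM includes brain 11, so some of the 204 genes passed it only through that brain. In all, 107 of the 204 also reached a mean of 5 CPM over the 8 brains other than P. formosa 4 and 11. Brain 4 was above each of those 8 brains for 97 of the 107 genes (90.7%), beside 19.4% of the 13683 genes that passed the same filter, which was added after seeing the data. The median level of all 204 genes was 116 CPM in brain 11, 18.4 in brain 4, 5.24 in brain 3, 6.26 in brain 12 and 4.79 to 5.84 in hybrid brains. In P. formosa livers the median was 9.73 in fish 3, 6.94 in fish 4, 17.7 in fish 11 and 16.2 in fish 12, against 2.48 to 4.99 in hybrid livers. By this median every P. formosa liver was above the hybrid livers, and liver 4 was the lowest P. formosa liver. The medians include genes that reached 5 CPM in brain only through P. formosa brains 4 and 11, and medians for the 107 genes are not given. Over all genes tested in liver, 24.2% were called higher in P. formosa and 22.5% lower. In ovaries the medians were 9.49, 13.7, 12.1 and 10.8 in P. formosa and 12.7 to 18.1 in hybrids.

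Among the 203 of these genes at 1 CPM or more in P. formosa liver, the liver of fish 11 was the highest of the 4 in 110 (54.2%), against 21.8% of all 12925 genes. Its ovary was the highest in 54 of 194 (27.8%), against 21.1%. These shares include genes that reached a mean of 5 CPM in brain only through P. formosa brains 4 and 11. Shares for the 107 genes that reached it over the other 8 brains are not given. Of the 204 genes, 103 reached 5 CPM in liver and ovary, 37 in liver only, 42 in ovary only and 22 in neither, and 4 were brain-enriched. Of all 22611 tested genes, the same groups held 34.2%, 4.23%, 25.9%, 35.7% and 12.3%, in that order. The 22611 genes were not filtered at 5 CPM in brain, as the 204 were. With all brains 105 of the 204 were called higher in P. formosa, which follows in part from their choice, and without brains 4 and 11 only 6 were, beside 7.79% and 2.28% of all tested genes. What tissue or state these genes mark was not tested, because the IDs carry no names.

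**Figure D4:**
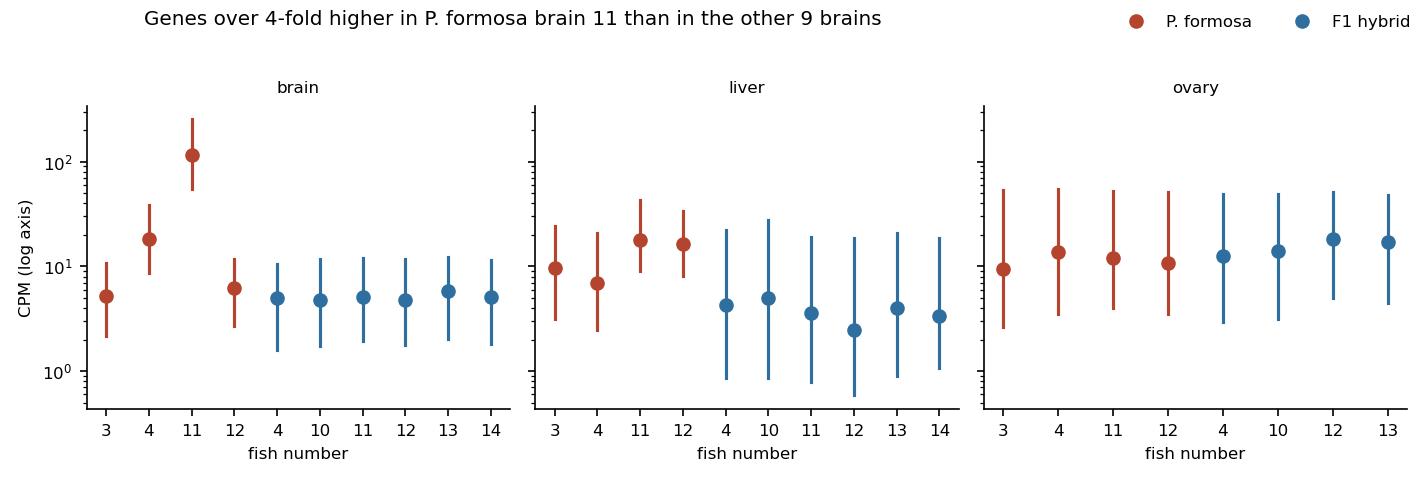
Level of the 204 genes more than 4-fold higher in P. formosa brain 11 than in each other brain, as the median (point) and the lower and upper quartile (bar) over genes in CPM on a log axis, for every brain, liver and ovary library. Brain 11 has a median of 116 CPM and brain 4 of 18.4, and the medians of the other brains lie between 4.79 and 6.26. Medians of P. formosa livers lie above those of hybrid livers, while the quartile bars overlap. Some of the genes reached a mean of 5 CPM in brain only through P. formosa brains 4 and 11.

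The departures of brains 4 and 11 from the other P. formosa brains were correlated. The difference of brain 4 from brain 3 and that of brain 11 from brain 12, which use no library in common, had a Pearson correlation of 0.58 across the 15578 genes. For brain 4 against 12 and brain 11 against 3 it was 0.62, and for brain 4 against 11 and brain 3 against 12 it was -0.0019. Without the 204 genes, an alternative added after seeing the data, the 3 values were 0.48, 0.56 and -0.07. Among the 45 pairings of this kind that the hybrid brains allow, the size of the correlation had a median of 0.16 and reached 0.39 at most. These are correlations across genes, which are not independent replicates. Brains 4 and 11 were also chosen for their departure in these same counts, while no hybrid was chosen in this way. The correlations thus describe that choice in part and are no separate support for it. The filter on the 15578 genes includes brains 4 and 11, so genes high in these brains could pass it through them. Genes at least 4 times higher in liver than in ovary (991) deviated from the mean of the hybrid brains by a median of 0.42 on the log2 scale in brain 4, with 71.5% of them above it. The median was 0.15 in brain 11, with 55.4% above, which lay near brain 12 at 0.07 and 56.6% and hybrid brain 10 at 0.10 and 61.7%.

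Spread within the clone was compared with that within the hybrid brood. A range of more than 4-fold between libraries was found for 1146 genes among the 4 P. formosa brains and for 108 genes between brains 3 and 12. The 15578 genes were chosen by a mean level that includes brains 4 and 11. Genes that passed only through these brains can add to the P. formosa counts. Sets of 4 hybrid brains gave a median of 317 genes, from 220 to 387, and pairs of hybrid brains a median of 128, from 55 to 198. The pair of brains 3 and 12 lay within the range of hybrid pairs, and the 4 P. formosa brains above every set of 4 hybrids. Brains 4 and 11 were set apart for their departure in these same counts. The smaller spread of the pair left over follows in part from that choice, and no hybrid was set apart in this way. The share of the 15578 genes with such a range was 2.69% without brain 11 alone and 6.48% without brain 4 alone, against 0.809% to 1.98% for sets of 3 hybrids. These shares were added after seeing the data, and removing brain 11 lowered the spread more than removing brain 4.

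The liver and ovary of the same fish differed between the genotypes at many of the genes called in brain. Of the 485 higher genes, 367 could be tested in liver, and 222 of them (60.5%) were also higher in P. formosa liver and 22 (5.99%) lower. Over all tested liver genes 24.2% were higher and 22.5% lower. Of the 415 tested in ovary, 167 (40.2%) were higher and 36 (8.67%) lower, beside 14.2% and 13.1% of all tested ovary genes. Of the 301 lower genes, 117 of 209 (56.0%) were lower in liver and 110 of 251 (43.8%) in ovary. Of 336 higher genes tested in both organs, 92 (27.4%) were higher in both, beside 4.15% of the 16424 brain genes tested in both. Of 197 lower genes, 66 (33.5%) were lower in both, beside 3.85%.

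The 1276 higher genes that lost their call without brains 4 and 11 were also tested in the other organs. In liver 691 of 1141 (60.6%) were higher in P. formosa and 45 (3.94%) lower, close to the 60.5% and 5.99% of the genes called in both brain tests. In ovary 205 of 1179 (17.4%) were higher and 133 (11.3%) lower, near the 14.2% and 13.1% over all ovary genes, with a median log2 fold change of 0.00. Liver and ovary of P. formosa fish 4 and 11 took part in these tests. Without them, in tests added after seeing the data, 579 of 1169 (49.5%) were higher in liver, against 15.6% of all genes, and 99 of 1203 (8.23%) in ovary, against 6.03%. For the 485 genes the same tests gave 190 of 380 (50%) in liver and 112 of 425 (26.4%) in ovary. Livers of fish 3 and 12 thus gave near-equal shares for the 1276 and the 485 genes.

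**Figure D5:**
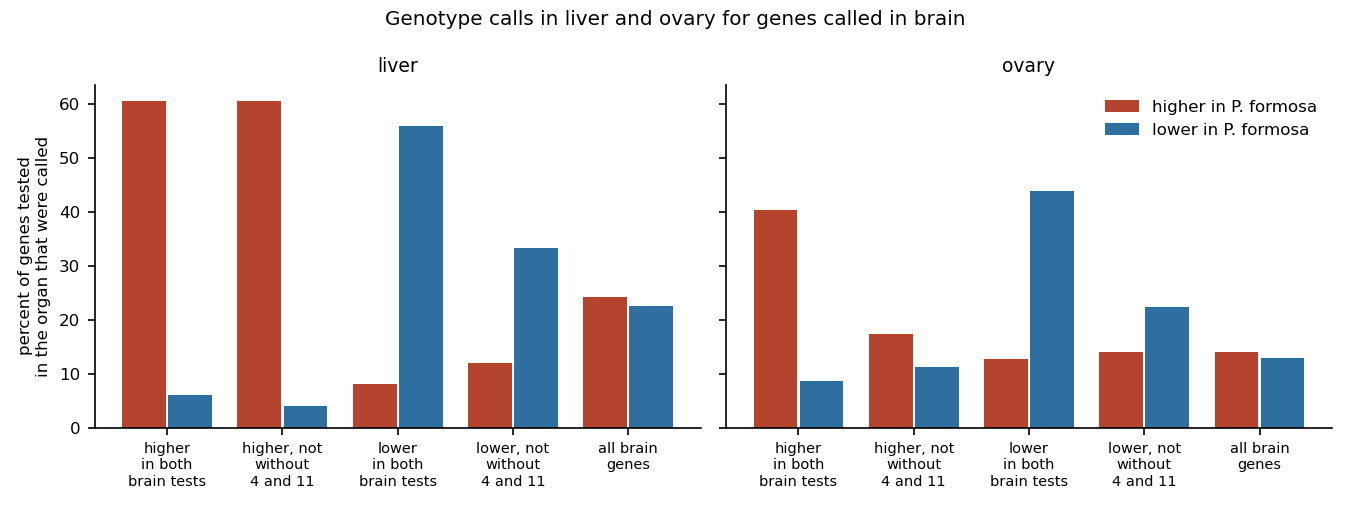
Percent of the genes tested in liver or ovary that were called higher or lower in P. formosa in that organ (vertical axis), for 4 sets of genes called in brain and for all genes tested in brain. Genes higher in both brain tests and genes higher only with brains 4 and 11 were higher in liver in 60.5% and 60.6% of cases, and in ovary in 40.2% and 17.4%.

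Across 16424 genes tested in all 3 organs, log2 fold changes in brain and liver had a Pearson correlation of 0.48 with all brains and 0.39 without brains 4 and 11. Those in brain and ovary had one of 0.17 and 0.31. The organs share the fish but no library, and genes are not independent replicates. Without the brains that stood apart, the value was thus lower for liver and higher for ovary; the change was not tested.

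An interaction test over all 28 libraries asked whether the genotype difference itself depended on the organ. Of 24871 genes, 8351 had unequal differences in brain and liver, and the difference was more positive in brain for 4001 (16.1%) and in liver for 4350 (17.5%). For brain and ovary the number was 3032, with 1968 (7.91%) more positive in brain and 1064 (4.28%) in ovary. A fit with each fish as a block, which pairs libraries of 1 animal, gave 7606 and 1992. Without brains 4 and 11 there were 7317 for liver (11.6% with the more positive difference in brain, 17.3% in liver), and 1211 for ovary (2.55% in brain, 2.23% in ovary). Leaving out P. formosa fish 11 in all organs gave 1589 for brain and ovary. The excess of genes more positive in brain than in ovary thus shrank without brains 4 and 11.

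Some genes differed between genotypes in opposite directions in different organs. Of the 485 higher genes, 22 of 367 tested in liver and 36 of 415 tested in ovary were called lower there, with the interaction also called, beside 22.5% and 13.1% of all genes tested in liver and ovary called lower. Of the 301 lower genes, 17 of 209 were called higher in liver and 28 of 251 in ovary, beside 24.2% and 14.2% of all genes called higher. The shares over all genes do not require a called interaction. Without that condition, 32 of 251 lower genes (12.7%) were higher in ovary, near the 14.2%, and the other counts were the same. For 39 of the 485 (8.04%) and 20 of the 301 (6.64%), both interactions were called in the direction of the brain difference, with and without brains 4 and 11. The interaction compares signed differences, so such a gene can differ as much in the opposite direction in another organ. Of the 39 and 20 genes, 30 and 13 were tested in both liver and ovary, and 9 and 4 were called in neither. All were first called in brain, and the interactions use the same brain libraries, so these counts are a description. No share over all tested genes is given beside them, so they cannot show whether this was more common among called genes than among others. The 4 genes described next were taken from these sets by the size of the difference, after their values were seen, and no p-value is given for them.

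Gene 103132583 was higher in P. formosa in brain and lower in both other organs. P. formosa brains 3, 4, 11 and 12 had 10.4, 10.2, 6.24 and 8.87 CPM, against 0.392 at the lowest, 0.558 at the median and 0.774 at the highest in hybrid brains. The genotypes were far apart, with a log2 fold change of 3.97 ± 0.24 (SE). In liver it was -1.49 ± 0.33, from 0.422 ± 0.118 CPM in P. formosa (SD, n = 4) and 1.19 ± 0.35 in hybrids (n = 6), and in ovary it was -2.36 ± 0.23. P. formosa had its highest level of this gene in brain, and hybrids in ovary, at 2.80 ± 0.60 CPM (SD, n = 4).

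Gene 103130984 was strongly expressed in liver and ovary of both genotypes, and in brain mainly in P. formosa. P. formosa brains 3, 4, 11 and 12 had 17.7, 18.5, 19.4 and 12.9 CPM, and hybrid brains 0.742 at the lowest, 0.837 at the median and 1.18 at the highest. The log2 fold change was 4.28 ± 0.17. Livers had 40.4 ± 8.45 CPM in P. formosa (SD, n = 4) and 51.1 ± 13.0 in hybrids (n = 6), and ovaries 66.0 ± 4.09 and 71.4 ± 8.11 (n = 4 each). Hybrid brains were thus the low exception among the 6 groups.

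Gene 103155841 was high in hybrid brains alone. P. formosa brains had 1.61, 2.44, 2.69 and 2.25 CPM in fish 3, 4, 11 and 12, against 66.3 at the lowest, 78.2 at the median and 93.1 at the highest in hybrids, a log2 fold change of -5.11 ± 0.18. In liver the levels were 2.72 ± 1.34 CPM in P. formosa (SD, n = 4) and 1.27 ± 0.39 in hybrids (n = 6), and in ovary 2.59 ± 0.17 and 2.03 ± 0.49 (n = 4 each). P. formosa had a similar low level in its 3 organs.

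Gene 103132924 was lower in P. formosa brain and higher in P. formosa ovary. P. formosa brains had 1.72, 1.88, 1.96 and 2.07 CPM in fish 3, 4, 11 and 12, and hybrid brains 10.2 at the lowest, 14.2 at the median and 19.9 at the highest, a log2 fold change of -2.91 ± 0.24. Ovaries had 16.9 ± 5.11 CPM in P. formosa and 2.78 ± 0.19 in hybrids (SD, n = 4 each), a log2 fold change of 2.60 ± 0.20. In brain the hybrids were the high group and in ovary P. formosa was, while livers were low in both, at 0.928 ± 0.344 (n = 4) and 1.39 ± 0.64 (n = 6).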

How the data were processed

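TruSeq mRNA libraries were made from total RNA of each organ, per the labels' protocols. The authors deposited 1 table of raw read counts for 31997 genes in 28 libraries, and the submitters' processing notes name TopHat2 for alignment and featureCounts for counting. Versions, genome build, annotation and strand setting are not given in the sources used here. Near-identical copies, antisense partners and alleles that differ from the reference can therefore gain or lose reads unequally between genotypes. Columns were matched to samples by name, and 0 columns were left unused.

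Genes were filtered with filterByExpr, libraries scaled with TMM, and genotypes compared by the robust quasi-likelihood test of edgeR 4.0.16 in R 4.3.3, adjusted over all genes tested (Benjamini-Hochberg, 0.05). A positive log2 fold change means a higher level in P. formosa. The interaction used 6 groups in 1 fit. CPM of genes used library totals scaled by TMM within each organ, while expression classes used TMM over all 28 libraries with genotypes weighted equally. Spread between brains used log2 CPM with a prior count of 2. Folds against 0 counts used a floor of 3 counts over the group, and intervals cover counting error only. Alternatives included limma 3.58.1 and DESeq2 1.42.0, and the tests were run on simulated counts. The simulation gave every gene the same spread, below the 29.8% found with all brains, and held no library that stood apart. It cannot show how the tests behave with such libraries.

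The members and lists were chosen with earlier results of these data known. Lists of pathways and cell types by gene symbol could not be run, since the files do not pair the IDs with names. In their place, 2 IDs per direction with the largest fold were named. Brain libraries within a genotype differed by more than sampling noise: chi-square per degree of freedom was 18.1 or more for each pair. Libraries of a fish's organs are paired by animal. Numbers shared between genotypes name different animals.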

Additional observations from a re-analysis of the deposited data

Results flagged for a closer look

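Several values in brain lay far from the rest of their group by Dixon's criterion, which chance meets in about 1 of 20 groups. P. formosa brain 11 had 204 genes more than 4-fold above every other brain, while the other P. formosa brains had 17 or fewer. Hybrid 12 had 1 such gene and the other hybrids none. Hybrid 13 had 25 genes more than 4-fold below every other brain, against 8 for hybrid 12 and none for the others. Hybrid 13 also had the highest share of counts on ovary-enriched genes among hybrids, 1.64%. P. formosa brain 4 had the lowest total of its group, 34739192 counts. Single hybrid brains stood out for gene 103132697 (0.0269 CPM in fish 4, with 0 in the others) and gene 103130984 (1.18 CPM in fish 14). The value of 0.0269 CPM is 1 count. Where all other values are 0, any count meets the criterion, so this flag and that of the 1 gene in hybrid 12 carry no weight.

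The genotype difference depended on the organ for 8351 genes in brain against liver and for 3032 in brain against ovary, by the interaction test. On the log2 scale, the brain difference minus the liver difference was 4.23 for gene 103132697, -4.38 for 103149106 and 8.12 for 103131645. The same quantity was 5.41 for gene 103132583, 4.56 for 103130984, -6.25 for 103155841 and -2.37 for 103132924. The brain difference minus the ovary difference was 5.30 for gene 103132697, -5.86 for 103149106 and 6.30 for 103132583. It was 4.37 for gene 103130984, -5.50 for 103155841 and -5.53 for 103132924. The values for 103132697 and 103131645 rest on groups at or near 0 counts, where fitted folds depend on the prior count.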

How the results depend on the processing

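Counts of genes higher and lower in P. formosa brain, 1761 and 966, moved with many choices. They were 527 and 378 without P. formosa brains 4 and 11, and 826 to 2531 and 420 to 1089 when each library was left out in turn. A mean of at least 5 CPM gave 854 and 464, a term for the library series 338 and 279, the first series alone 162 and 120, and that series without P. formosa brains 4 and 11 (added after seeing the data) 727 and 591. Limma voom gave 914 and 761, and the DESeq2 test 2773 and 1819. A fit over all 28 libraries gave 2415 and 494, so that 83.0% of calls were higher, against 64.6% in the brain fit, 54.6% in limma and 54.8% with the series term. DESeq2 or upper-quartile factors and no filter changed each count by less than 1.5 times. Fish numbers 4, 11 and 12 occur in both genotypes and name different animals. Deviations of same-numbered brains had correlations of 0.18, -0.11 and 0.01, beside -0.30 to 0.21 for brains with unlike numbers. Whether same-numbered fish shared any condition was not tested. A replicate block on the numbers gave 91 and 40.

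The brain and ovary interaction, 3032 genes, gave 1211 without P. formosa brains 4 and 11, 1992 with fish as replicate block, and 1589 to 2944 when each fish was left out. That for brain and liver stayed within 1.5 times of 8351. The 8 named genes kept their direction in all alternatives run. Gene 103154613 had an adjusted p of 0.0522 in the first series alone, and gene 103149106 of 0.0522 there and 0.0882 with the block on numbers; over all alternatives their highest values were 0.0522 and 0.0882. The cause of these changes was not tested. Classes built from hybrid libraries only gave class counts within 1.5 times of those reported. With 2-fold in place of 4-fold, classes were wider, and higher and lower calls were 69 and 290 for brain-enriched, 323 and 87 for liver-enriched and 320 and 84 for ovary-enriched genes.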
